A study of Mus musculus with 25 samples.

Results

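The comparison of 8 weeks with 4 weeks covered 10 of the 25 salivary gland arrays of the series, the 5 labelled 8 weeks and the 5 labelled 4 weeks, and it was read across all 18194 genes that could be measured, with attention to genes other than those of cell division and the collagen chains. All mice were males of the strain C57BL/6.NOD-Aec1Aec2, a C57BL/6 mouse that carries the NOD-derived regions Aec1 and Aec2 and develops a Sjögren's syndrome-like disease, and none was treated. Each array held the RNA of 1 mouse, taken from submandibular, sublingual and parotid gland together with the lymph nodes removed, and the 5 mice of an age came from several litters. Since mice of both ages carried the same NOD regions and none of the arrays analysed here came from a strain without them, a change of normal growth and a change particular to this strain cannot be told apart.

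Between weaning and adulthood the salivary glands of a male mouse complete their growth: acinar cells that make a juvenile set of secretory proteins give way to mature ones, and part of the submandibular duct turns into granular convoluted tubules, which make kallikreins and growth factors under androgen. Vessels, basement membranes and the fibroblast matrix are laid down while the gland enlarges and are then mainly maintained. Growth of an organ at this age is driven by growth hormone and insulin-like growth factors and is tuned by imprinted genes, a small group expressed from a single parental copy, many of which fall silent after infancy.

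The values were log2 signals, in which a difference of 1 is a 2-fold difference, and a probe set with a mean above 3.27 was counted as expressed. The 10 arrays were alike in shape, with a median correlation with the other arrays of their age of 0.986 to 0.992 at 8 weeks and 0.985 to 0.992 at 4 weeks. The upper quartile of the signal was higher at 8 weeks, 5.70 to 5.94, than at 4 weeks, 5.34 to 5.75 (difference 0.223, exact permutation p = 0.0159, two-sided, 5 against 5 arrays), with 4-week mouse 4 lowest. The median difference over expressed genes was 0.098 as deposited and -0.014 after quantile normalization, a shift of 0.111, so that small differences in long lists are read below against that shift. The difference between 3' and 5' probe sets of beta-actin, a sign of RNA quality, was 2.07 to 3.1 at 8 weeks and 2.18 to 2.67 at 4 weeks, while the array of 20-week mouse 3, which entered the fit of all 25 arrays, had 5.36 and a correlation with its own age of 0.887. Mice of one age differed among themselves: products of the parotid such as amylase were low in 8-week mice 2 and 3 and in 4-week mouse 2, and lymph node genes were high in 8-week mouse 4 and in 4-week mice 3, 4 and 5, as given with their values further on. Xist averaged below 3.27 at both ages, as in male mice.

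At an adjusted p under 0.05 (limma, Benjamini-Hochberg over all genes), 411 genes were called at 8 weeks against 4 weeks (2.26% of those tested), of which 269 rose (1.48%) and 142 fell (0.780%), while 2540 genes had an unadjusted p under 0.05. Of the genes called, 129 rose and 60 fell by over 2-fold. In 320 of the 411 the 5 values at 8 weeks did not overlap the 5 at 4 weeks, while 8.63% of all genes tested were without overlap. Rises made up 65.5% of the calls on the deposited values, 48.6% after quantile normalization and 37.0% with the upper quartile fitted as a covariate. The cell division list held 23 of the falls and the collagen list 9, so that 110 falls and all 269 rises lay outside both. Counts in the gene lists below are read against 1.48% for rises and 0.780% for falls, shares at which 1 call in a list is no result about that list. After quantile normalization the calls over all genes were 293 rises and 310 falls, and list counts under it are given where they differ most.

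The number of calls depended on single arrays. Rises numbered 98 without 4-week mouse 3, 90 without 4-week mouse 4, 139 without 4-week mouse 2, 148 without 8-week mouse 3, 151 without 8-week mouse 4 and 79 without 8-week mouse 5, and they numbered 501 without 4-week mouse 1 and 936 without 20-week mouse 3. Falls numbered 94 without 8-week mouse 3, 85 without 8-week mouse 5, 89 without 4-week mouse 3 and 305 without 20-week mouse 3. Under each of the 11 omissions 145 genes kept their call, 69 that rose and 76 that fell, 50 of these falls outside the cell division and collagen lists. Of the called genes named below, 39 of 88 are among the 145. The others are given with at least 1 omission that ended their call, not always with all of them.

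The largest fall was in a gene of vessels. Aplnr, the receptor of the peptide apelin, which marks sprouting endothelium in the mouse, had log2 signals of 3.74, 3.77, 3.46, 5.92 and 5.39 in 8-week mice 1 to 5, against 7.37, 7.80, 8.25, 7.59 and 6.64 in 4-week mice 1 to 5. The ages did not overlap, and 8-week mice 4 and 5 lay between the other 8-week mice and the 4-week mice. The difference was -3.07 ± 0.448 (SE), an 8.42-fold lower signal (adjusted p = 0.000433), and the call held without any single array. In later mice the means at 12, 16 and 20 weeks were 5.02, 3.67 and 3.30. The ligand gene Apln differed by -0.25 (adjusted p = 0.543).

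Cd93, a lectin-like receptor of young endothelium, had 3.98 ± 0.136 at 8 weeks and 5.09 ± 0.324 at 4 weeks (SD, n = 5 each), a difference of -1.11 with no overlap (adjusted p = 4.69e-05). It was named after its values were seen, and its brightest probe set alone, with -0.44, did not pass (adjusted p = 0.446). The pericyte gene Rgs5, a regulator of G protein signalling, had 4.96, 4.97, 4.94, 5.21 and 5.61 in 8-week mice, against 5.97, 6.05, 6.15, 5.33 and 5.84 in 4-week mice. The highest 8-week mouse, mouse 5, lay above 4-week mouse 4, yet the fall of 0.73 passed (adjusted p = 0.0118) and was kept without any single array. Pdgfrb, the PDGF receptor of pericytes and fibroblasts, fell by 1.04 (adjusted p = 0.00937). Sox18, a transcription factor of vessel growth, fell by 0.74 (adjusted p = 0.0195), a call that was lost without 8-week mouse 3 or 5 or 4-week mouse 3 (adjusted p up to 0.0702). Both Pdgfrb and Sox18 overlapped between ages.

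Across the list of endothelial and pericyte genes, 3 of 41 measured members fell and none rose, against 0.780% and 1.48% of all genes. The median difference of the list was -0.19, or -0.16 after quantile normalization, with 36 members lower at 8 weeks. The list held 10 falls without 4-week mouse 1, 5 without 4-week mouse 5 and 6 without 20-week mouse 3, but 2 without 8-week mouse 3 or 5. Its expressed members together, Aplnr among them, lay at 4.63 to 4.80 per mouse at 8 weeks and 4.83 to 5.11 at 4 weeks. The ages were barely apart, with 8-week mouse 4 at 4.80 and 4-week mouse 4 at 4.83. No mean was taken without Aplnr, so whether the rest of the list was separate was not tested. Kdr and Tie1, receptors of endothelium at any age, differed by -0.46 (adjusted p = 0.172) and -0.37 (adjusted p = 0.0633). In RNA of a whole gland, fewer cells of a type and less RNA per cell cannot be told apart. Vegfa, the growth factor of endothelium, was named outside the rule and went the other way in value. It had 9.80 ± 0.358 at 8 weeks and 7.90 ± 1.11 at 4 weeks, with 4-week mouse 4 at 6.03. The difference of 1.90 did not pass (adjusted p = 0.118), while the brightest probe set of Vegfa alone passed (1.94, adjusted p = 0.00678).

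**Figure D1:**
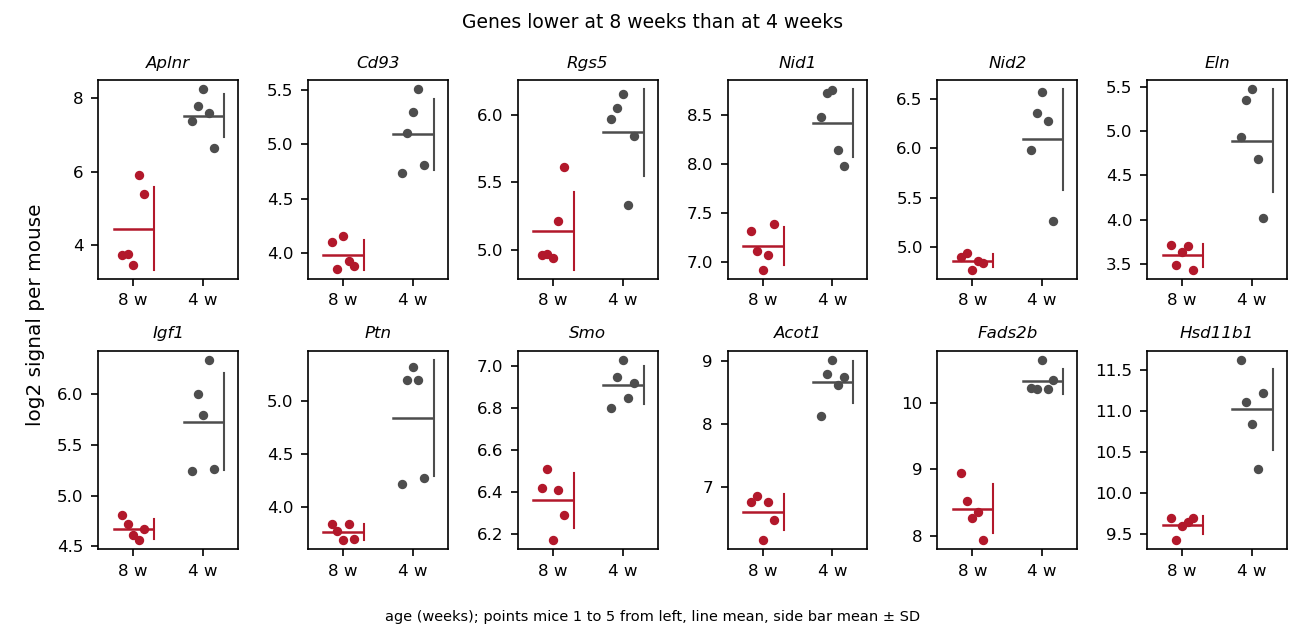
Log2 signal of 12 genes that fell, one panel per gene, with the 5 mice of 8 weeks at the left (red) and the 5 of 4 weeks at the right (grey) in order of mouse number; the line is the mean and the side bar the mean ± SD. Only Rgs5 shows an overlap between ages, and in Igf1 and Ptn 4-week mice 1 and 5 lie nearest to the 8-week mice.

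Among growth genes few passed. The list of fetal and juvenile growth regulators had 3 falls in 28 measured genes, no rise and a median of -0.08, with 5 falls after quantile normalization. Ptn, the secreted growth factor pleiotrophin, had 3.84, 3.78, 3.69, 3.84 and 3.70 in 8-week mice, against 4.22, 5.20, 5.32, 5.20 and 4.28 in 4-week mice, a fall of 1.07 (adjusted p = 0.0018). Ptn averaged 2 expressed probe sets, with differences of -2.09 and -0.06 when taken singly. Its relative Mdk, midkine, had 4.61 ± 0.0682 at 8 weeks and 5.52 ± 0.479 at 4 weeks (adjusted p = 0.0207). Both genes were low in every 8-week mouse, and among 4-week mice both were lowest in mice 1 and 5. Ccnd2, the D2 cyclin, fell by 0.39 (adjusted p = 0.0274). The brightest probe set of Ccnd2 alone did not pass (adjusted p = 0.155). Mdk lost its call without 8-week mouse 3 or 5 or 4-week mouse 2, 3 or 4 (adjusted p up to 0.0708), and Ccnd2 without 8-week mouse 1, 3 or 5 or 4-week mouse 2, 3 or 4 (up to 0.085).

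Of 23 imprinted growth genes measured, 2 fell and none rose, with 18 lower at 8 weeks and a median of -0.12. Ndn, necdin, a protein that restrains proliferation, had 6.14 ± 0.145 at 8 weeks and 6.96 ± 0.389 at 4 weeks (difference -0.83, adjusted p = 0.0245). Peg3, a paternally expressed zinc finger gene, fell by 0.27 (adjusted p = 0.0229) at a level under the expressed limit, 2.63 at 8 weeks and 2.90 at 4 weeks. The Ndn call was lost without 8-week mouse 2, 3 or 5 or 4-week mouse 2 or 3 (adjusted p up to 0.0865), and that of Peg3 without 8-week mouse 3 or 5 or 4-week mouse 2 or 3 (up to 0.0777). Their brightest probe sets alone did not pass (adjusted p = 0.504 for Ndn and 0.373 for Peg3). Cdkn1c, the imprinted cyclin-dependent kinase inhibitor p57, was named after its values were seen. It lay between 2.73 and 2.77 in all 8-week mice, while 4-week mice 1 to 5 had 2.80, 7.74, 7.79, 4.97 and 2.80. Mice 2, 3 and 4 of 4 weeks carried the signal and mice 1 and 5 were near the 8-week level, and the difference of -2.47 did not pass (adjusted p = 0.0592).

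The insulin-like growth factor axis held 2 rises and 2 falls in 22 measured genes as deposited and 1 rise and 6 falls after quantile normalization, with medians of -0.04 and -0.02. Igf1, the growth factor itself, had 4.81, 4.72, 4.61, 4.56 and 4.67 in 8-week mice, against 5.24, 6.00, 5.80, 6.34 and 5.26 in 4-week mice. No 8-week mouse reached a 4-week mouse, and the fall was 1.05 ± 0.228 (SE, adjusted p = 0.0154), with an adjusted p of 0.055 without 4-week mouse 4 and of 0.157 for the brightest probe set alone. Igfbp5, a binding protein of the factor, fell by 0.93 (adjusted p = 0.0282), with 0.504 for its brightest probe set alone. Irs1, the docking protein behind the insulin and IGF1 receptors, had 10.20 ± 0.366 at 8 weeks and 8.67 ± 0.729 at 4 weeks, a rise of 1.53 (adjusted p = 0.0322). Igfals, which carries the factor in blood and is made mainly in liver, rose by 0.66 (adjusted p = 0.0399), or by 0.37 after quantile normalization, where it did not pass (adjusted p = 0.196). The calls of the other 3 genes were lost in 6 to 9 omissions, up to 0.0879 for Igfbp5 without 8-week mouse 5, up to 0.113 for Irs1 without 4-week mouse 4 and up to 0.13 for Igfals without 8-week mouse 5.

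In the FGF, hedgehog, BMP and PDGF list, whose pathways shape branching of the gland, 1 of 41 genes rose and 2 fell, Pdgfrb among them, while 2 rose and 4 fell after quantile normalization. Smo, the signal transducer of the hedgehog pathway, had 6.36 ± 0.132 at 8 weeks and 6.91 ± 0.0899 at 4 weeks, a fall of 0.55 with no overlap (adjusted p = 0.00108). Its 3 expressed probe sets differed by -0.8, -0.74 and -0.12 when taken singly. Fgf9, a secreted fibroblast growth factor, had 6.89, 7.27, 7.45, 7.18 and 7.31 in 8-week mice, against 6.46, 5.88, 4.99, 4.91 and 6.05 in 4-week mice, a rise of 1.56 (adjusted p = 0.00142). Every 8-week mouse was above every 4-week mouse for Fgf9, and both calls held without any single array. Of 48 Wnt and Notch genes, only Lfng, which adds sugar to Notch receptors, was called, with a fall of 0.97 (adjusted p = 0.0342) that was lost in 6 of the 11 omissions, up to 0.112 without 4-week mouse 3, and with the upper quartile as a covariate (adjusted p = 0.109). A single call in this list is near the share over all genes.

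Outside the collagen chains, the matrix genes that passed all fell. In the list of matrix glycoproteins and proteoglycans 5 of 62 fell, namely both nidogens, which link laminin to collagen IV in the basement membrane, 2 laminin chains and elastin. Nid2 had 4.90, 4.94, 4.77, 4.86 and 4.84 in 8-week mice, against 5.98, 6.36, 6.57, 6.28 and 5.26 in 4-week mice. The 8-week mice lay together (SD 0.0632) and below all 4-week mice, and the fall was 1.23 ± 0.148 (SE, adjusted p = 4.66e-05). Nid1 had 7.16 ± 0.19 at 8 weeks and 8.42 ± 0.348 at 4 weeks (difference -1.26, adjusted p = 0.00584). Eln, elastin, had 3.60 ± 0.129 at 8 weeks and 4.89 ± 0.58 at 4 weeks (difference -1.29, adjusted p = 0.00127), so that at 8 weeks it was close to the limit of 3.27. Lama2, the laminin alpha 2 chain of muscle and nerve basement membranes, fell by 0.93 (adjusted p = 0.00835). The calls of these genes held without any single array, while Lamb1, the laminin beta 1 chain, with a fall of 0.88 (adjusted p = 0.0212), lost its call in 5 omissions, up to 0.0709 without 4-week mouse 3, and with its brightest probe set alone (adjusted p = 0.22). The median of the list was -0.05, with 20 members higher and 42 lower at 8 weeks. Members that were not called went up as well as down. Among those higher were Postn, by 1.33 (adjusted p = 0.0587), and the laminin chain Lamb2, by 1.09 (adjusted p = 0.0662). The list held 9 falls and 3 rises without 20-week mouse 3 and 9 falls and 1 rise after quantile normalization.

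Of 46 matrix processing and crosslinking enzymes 5 fell and none rose. Adamts12, a secreted metalloproteinase, had 2.25, 2.27, 2.23, 2.25 and 2.22 in 8-week mice, against 3.16, 3.40, 3.52, 3.13 and 2.43 in 4-week mice (adjusted p = 0.000187). All values at 8 weeks and 3 of 5 at 4 weeks were under the expressed limit of 3.27, so that neither age was clear of background and the size of the fall is not read. Mmp14, the membrane-bound matrix metalloproteinase, had 4.23 ± 0.0904 at 8 weeks and 5.01 ± 0.414 at 4 weeks (adjusted p = 0.0199). Its brightest probe set alone did not pass (adjusted p = 0.163). Without 8-week mouse 5 (adjusted p = 0.0674) or 4-week mouse 2, Mmp14 lost its call. Its substrate Mmp2, a gelatinase, fell by 0.63 (adjusted p = 0.0428), the fibroblast protease gene Fap by 0.99 (adjusted p = 0.0246) and Ctsk, a collagen-degrading cathepsin, by 0.84 (adjusted p = 0.0266). These last genes overlapped between ages and lost their call in several omissions, up to 0.118 for Mmp2 and 0.0772 for Fap without 8-week mouse 3 and up to 0.0923 for Ctsk without 4-week mouse 3. The enzyme list held 8 falls after quantile normalization, 7 without 20-week mouse 3 and 2 without 4-week mouse 2 or 3 or 8-week mouse 2 or 3.

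The promoter windows of Igf1 and Nid1 are shown because both genes fell outside cell division, while CCAAT and the core of a cell cycle element, TTTGAA, are motifs best known from cell division genes. They are the 250 bases before the RefSeq start on build GRCm38.p6, 5′ to 3′ on the strand of the gene, in lower case with matches on either strand to any of the 4 motifs searched in capitals, these and the heat shock and clock motifs given with Hsph1 and Tef: Igf1 lies at chr10:87860861-87861110 and Nid1 at chr13:13437352-13437601, both on the plus strand.
Igf1: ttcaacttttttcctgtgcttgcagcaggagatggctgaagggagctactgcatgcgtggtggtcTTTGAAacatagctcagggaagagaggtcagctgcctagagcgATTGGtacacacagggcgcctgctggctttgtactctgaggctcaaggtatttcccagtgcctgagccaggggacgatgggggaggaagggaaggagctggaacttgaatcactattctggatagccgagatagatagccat
Nid1: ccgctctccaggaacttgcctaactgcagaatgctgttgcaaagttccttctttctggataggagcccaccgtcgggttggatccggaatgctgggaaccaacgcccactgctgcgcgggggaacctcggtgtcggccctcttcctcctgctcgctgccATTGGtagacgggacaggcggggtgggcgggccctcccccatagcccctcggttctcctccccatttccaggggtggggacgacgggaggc
Igf1 held CCAAT on the opposite strand, with its first base 142 bases before the start, and TTTGAA 185 bases before it, and Nid1 held CCAAT on the opposite strand 91 bases before the start. Searched on both strands in windows of the same length, CCAAT was in 48.1% of the 77 genes with a promoter entry that fell outside the cell division and collagen lists, in 78.9% of the 19 cell division genes that fell, in 37.2% of the 231 that rose and in 39.4% of the 14453 genes tested that had an entry. TTTGAA was in 20.8%, 52.6%, 11.3% and 14.1% of the same groups. Over all 32851 windows the shares were 33.8% for CCAAT and 16.0% for TTTGAA. These are descriptions of letters in a window, and no test was made.

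Several of the largest falls were in single genes of fat and steroid handling and of secreted proteins, which were named by the size of the fall. Of these, Hsd11b1 was also on the list of sex steroid, thyroid and corticoid response genes. In that list 1 of 27 rose, Sgk1, and 1 fell, Hsd11b1, single calls that are no result about the list. Acot1, a cytosolic thioesterase that frees fatty acids from coenzyme A, had 6.76, 6.86, 6.16, 6.76 and 6.49 in 8-week mice, against 8.13, 8.80, 9.02, 8.62 and 8.74 in 4-week mice. Every 8-week mouse was far below every 4-week mouse, and the fall was 2.05 ± 0.251 (SE), 4.16-fold (adjusted p = 4.71e-05). Fads2b, a gene of the fatty acid desaturase family, had 8.94, 8.53, 8.27, 8.37 and 7.94 in 8-week mice, against 10.22, 10.21, 10.64, 10.20 and 10.34 in 4-week mice, a fall of 1.91 (adjusted p = 0.000283). Hsd11b1, the enzyme that regenerates active corticosterone, had 9.69, 9.42, 9.60, 9.64 and 9.69 in 8-week mice, against 11.62, 11.11, 10.84, 10.29 and 11.22 in 4-week mice (difference -1.41, adjusted p = 0.000269). For these genes the ages did not overlap and no single array carried the call.

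Mup5, a major urinary protein of the pheromone-binding lipocalins, had 11.28 ± 0.391 at 8 weeks and 12.90 ± 0.346 at 4 weeks (difference -1.62, adjusted p = 0.00105). Its relatives are near copies of each other, so the probe set may read more than 1 of them. Agt, angiotensinogen, the precursor of angiotensin, had 9.09 ± 0.343 at 8 weeks and 10.47 ± 0.318 at 4 weeks (adjusted p = 0.00303). Slc25a34, of the mitochondrial carrier family, fell by 1.37 (adjusted p = 0.000269) and Stard4, a carrier of cholesterol in the cytosol, by 1.34 (adjusted p = 0.000274), or by 0.68 for its brightest probe set, which did not pass (adjusted p = 0.0591). Means of Mup5 at 12, 16 and 20 weeks were 11.91, 11.43 and 12.86 and those of Fads2b 9.37, 8.45 and 9.72, so that both were higher again in 20-week mice, whereas Acot1 had 7.0, 6.32 and 6.22. In the list of sterol and fatty acid synthesis genes none of 37 was called (8 with an unadjusted p under 0.05, and 2 falls after quantile normalization). In that of fatty acid oxidation and peroxisome genes 1 of 35 rose, Ppargc1b, and none fell, against no rise and 3 falls after quantile normalization.

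The other largest falls were of mixed roles. Cdc20, an activator of the anaphase-promoting complex that was not on the division list, fell by 2.36 (adjusted p = 0.00569), and H1f2, a linker histone, by 1.66 (adjusted p = 8.4e-05), with 9.40 ± 0.303 at 8 weeks and 11.06 ± 0.281 at 4 weeks. Ramp1, which makes the receptor for the nerve peptide CGRP, had 4.35, 3.24, 4.21, 4.35 and 3.88 in 8-week mice, against 4.37, 6.63, 7.31, 6.26 and 4.38 in 4-week mice. The ages barely missed each other, with 4-week mice 1 and 5 at the 8-week level, and the fall of 1.78 (adjusted p = 0.0458) was lost in 8 of 11 omissions, up to 0.141 without 4-week mouse 3. Ppic, a cyclophilin, fell by 1.39 (adjusted p = 0.0365), Slc37a2, a sugar phosphate carrier, by 1.32 (adjusted p = 0.0307) and Itm2a, a membrane protein of differentiating cells, by 1.30 (adjusted p = 0.0399; 0.372 for its brightest probe set alone). Each of the last 3 lost its call in 7 omissions, up to 0.105 for Ppic without 8-week mouse 3, 0.104 for Slc37a2 without 4-week mouse 3 and 0.104 for Itm2a without 4-week mouse 4.

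**Figure D2:**
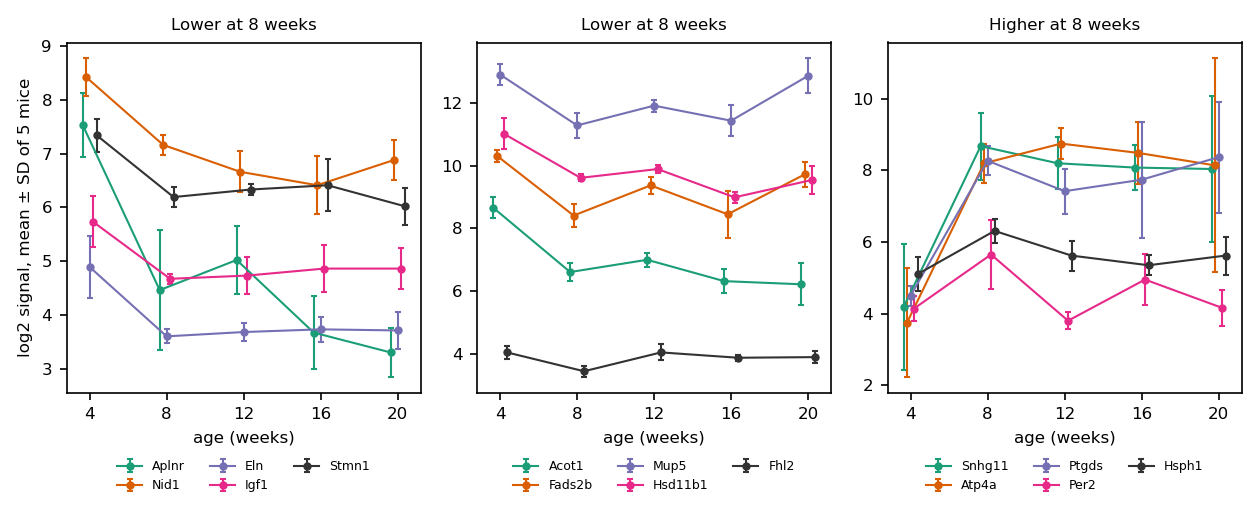
Mean log2 signal ± SD of the 5 mice at each age from 4 to 20 weeks for 15 genes in 3 panels, all 25 arrays included. Eln, Igf1, Stmn1 and Acot1 stayed near their 8-week mean at later ages, Mup5 and Fads2b were higher again at 20 weeks, and the means of Per2 and Hsph1 were lower at 12 weeks than at 8 weeks.

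In the 2 genes with the largest rises, Snhg11 and Atp4a, 3 of the 5 mice of 4 weeks were near background. Snhg11, a long RNA that hosts small nucleolar RNAs and is otherwise known from neurons, had 7.68, 7.81, 9.78, 8.71 and 9.41 in 8-week mice, against 7.09, 3.39, 2.77, 3.13 and 4.54 in 4-week mice. The difference was 4.50 ± 0.825 (SE, adjusted p = 0.00479), or 3.32 with the upper quartile as a covariate, and its size is uncertain with 3 mice of 4 weeks near background and 4-week mouse 1 close to the 8-week mice. Atp4a, the catalytic subunit of the proton pump of the stomach, had 7.68, 8.61, 8.55, 7.54 and 8.62 in 8-week mice, against 6.32, 2.97, 2.56, 2.97 and 3.90 in 4-week mice, a rise of 4.45 (adjusted p = 0.0162), or of 3.02 with the covariate. Again 4-week mouse 1 stood above the other 4-week mice, and the Atp4a call was lost without 8-week mouse 5 or 4-week mouse 3 or 4 (adjusted p up to 0.0563). Ptgds, the prostaglandin D2 synthase, also a lipocalin, had 8.34, 8.84, 8.42, 7.91 and 7.86 in 8-week mice, against 4.10, 4.79, 4.72, 4.42 and 4.46 in 4-week mice. Here the 4-week mice lay together (SD 0.276), and the rise of 3.78, or of 3.13 with the covariate, passed (adjusted p = 0.00303) and held without any single array.

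**Figure D3:**
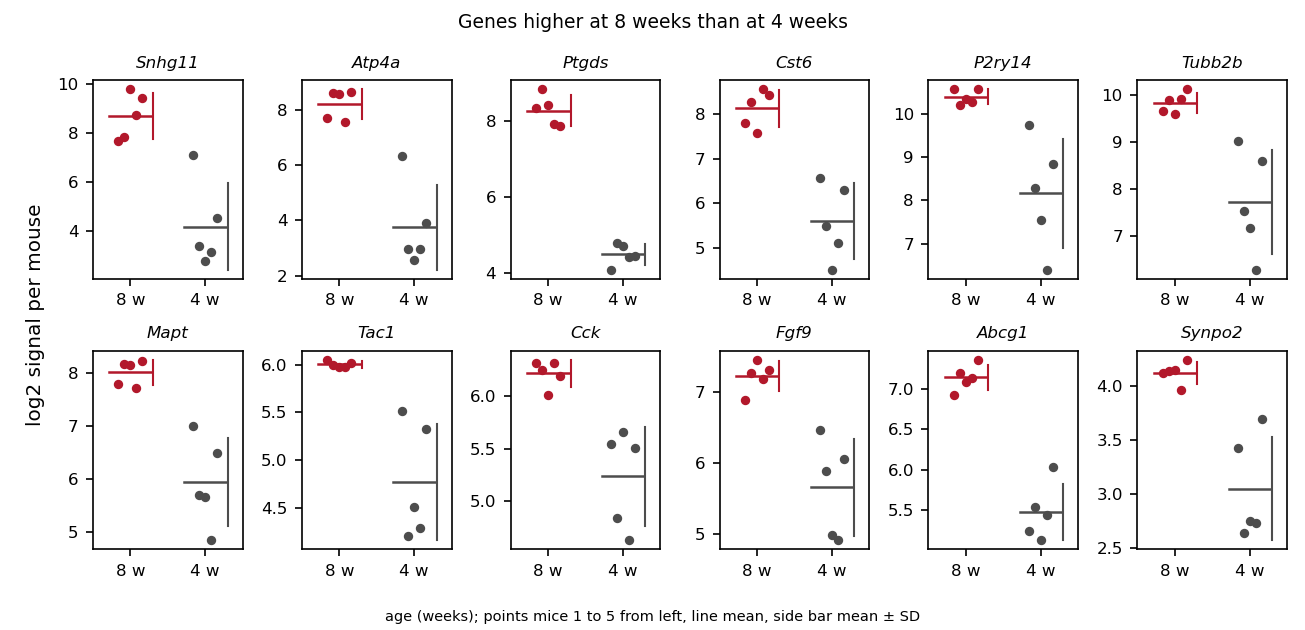
Log2 signal of 12 genes that rose, one panel per gene, with the 5 mice of 8 weeks at the left (red) and the 5 of 4 weeks at the right (grey) in order of mouse number; the line is the mean and the side bar the mean ± SD. The ages do not overlap in any panel, and 4-week mouse 1 is the highest 4-week mouse in most, but not in Ptgds, Cck, Abcg1 and Synpo2.

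Further large rises were in genes of transport, inhibition and signalling. Cst6, the cysteine protease inhibitor cystatin E/M, had 7.80, 8.28, 7.59, 8.57 and 8.44 in 8-week mice, against 6.58, 5.48, 4.51, 5.10 and 6.31 in 4-week mice (difference 2.54, adjusted p = 0.00134). P2ry14, the receptor of UDP-glucose, had 10.39 ± 0.171 at 8 weeks and 8.15 ± 1.27 at 4 weeks (difference 2.23, adjusted p = 0.00425), and Slc41a2, a magnesium transporter, had 8.66 ± 0.503 at 8 weeks and 6.62 ± 0.793 at 4 weeks (difference 2.04, adjusted p = 0.000426). Camta1, a calmodulin-binding transcription factor, with 2.46 (adjusted p = 0.00305), and Paxbp1, a partner of PAX factors, with 2.10 (adjusted p = 0.00605), held in all omissions, though the brightest probe set of Camta1 alone did not pass (1.99, adjusted p = 0.0582). Galc, the lysosomal galactosylceramidase (2.46, adjusted p = 0.031), Sult1c1, a sulfotransferase (2.79, adjusted p = 0.0321), Amhr2, the receptor of the anti-Müllerian hormone (2.29, adjusted p = 0.0246), Pik3ip1, an inhibitor of PI3 kinase (2.09, adjusted p = 0.0458), and Grb14, an adaptor that restrains the insulin receptor (2.02, adjusted p = 0.0218), lost their calls in 4 to 9 omissions. Their largest adjusted p values were 0.109, 0.0864, 0.134 and 0.0657 without 4-week mouse 4 for Galc, Amhr2, Pik3ip1 and Grb14, and 0.103 without 4-week mouse 3 for Sult1c1. The calls of Amhr2 (adjusted p = 0.0812) and Sult1c1 (0.0859) were also lost with the upper quartile as a covariate. The 2 expressed probe sets of Amhr2 differed by 2.36 and 2.21 when taken singly, and its other probe set, not counted as expressed, by -0.01.

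Abcg1, a sterol exporter, was named after its values were seen, as were the next 4 genes. It had 6.93, 7.20, 7.09, 7.14 and 7.36 in 8-week mice, against 5.25, 5.54, 5.13, 5.44 and 6.03 in 4-week mice, a rise of 1.66 ± 0.178 (SE, adjusted p = 9.06e-06). Sgms2, a sphingomyelin synthase of the cell surface, rose by 1.92 (adjusted p = 0.00848) and Cyp2b10, a cytochrome P450 of drug metabolism, by 1.85 (adjusted p = 0.00304). Tac1, the precursor of substance P, had 6.05, 6.00, 5.97, 5.97 and 6.02 in 8-week mice, against 5.51, 4.21, 4.51, 4.29 and 5.33 in 4-week mice, a rise of 1.23 (adjusted p = 0.0037). Its 2 expressed probe sets differed by 2.58 and -0.11 when taken singly. Cck, the precursor of cholecystokinin, had 6.22 ± 0.129 at 8 weeks and 5.24 ± 0.468 at 4 weeks (adjusted p = 0.00588). All 8-week mice were above all 4-week mice for these genes, and the calls held without any single array.

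In the list of cytoskeletal and neurite growth genes 2 of 27 rose and 2 fell, or 2 and 4 after quantile normalization. Tubb2b, a beta-tubulin, had 9.67, 9.90, 9.59, 9.91 and 10.13 in 8-week mice, against 9.02, 7.53, 7.18, 6.29 and 8.61 in 4-week mice (difference 2.11, adjusted p = 0.0018). Mapt, the microtubule-binding protein tau, was not on the list and was named as one of the largest rises. It had 8.00 ± 0.237 at 8 weeks and 5.93 ± 0.829 at 4 weeks (adjusted p = 0.0113), or 0.0753 for its brightest probe set alone. Tubb2a, the neighbouring tubulin gene with a near-identical sequence, rose by 1.23 (adjusted p = 0.0303), a call lost in 8 omissions, up to 0.0955 without 4-week mouse 3, and the 2 tubulins may share probe signal. No other tubulin of the list passed: Tuba1a (adjusted p = 0.193), Tubb3, the tubulin best known from neurons (-0.10, adjusted p = 0.71), and Tubb6 (-0.35, adjusted p = 0.0624). In the opposite direction Stmn1, stathmin, which takes microtubules apart in dividing cells, fell by 1.15 (adjusted p = 0.00213), and Fhl2, a LIM domain protein, by 0.60 (adjusted p = 0.00835), with a mean of 4.05 again at 12 weeks. Stmn1 is also on the cell division list and is counted among its falls. None of 28 nerve and Schwann cell genes was called (4 with an unadjusted p under 0.05, and 1 fall after quantile normalization), and that list lay at 5.72 to 5.92 per mouse at 8 weeks and 5.65 to 5.95 at 4 weeks.

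The myoepithelial and smooth muscle list had the highest median of the 54 lists as deposited, 0.79, and after quantile normalization, 0.52. With the upper quartile as a covariate its median was 0.27, under the 0.34 of the class II genes. On the deposited values 2 of its 20 measured members rose. Synpo2, an actin-binding protein of contractile cells, had 4.12 ± 0.102 at 8 weeks and 3.05 ± 0.479 at 4 weeks (adjusted p = 0.00611), and Tpm2, a tropomyosin, rose by 0.76 (adjusted p = 0.0262). The 2 expressed probe sets of Synpo2 differed by 2.19 and -0.04 when taken singly. Tpm2 lost its call in 5 omissions, up to 0.0763 without 8-week mouse 5. Its call was also lost after quantile normalization (0.46, adjusted p = 0.233) and with the covariate (0.65, adjusted p = 0.0834). Tagln, transgelin, had 11.85, 11.70, 12.02, 11.59 and 11.76 in 8-week mice, against 11.37, 10.20, 9.98, 9.12 and 11.06 in 4-week mice. The ages did not overlap, but the difference of 1.44 did not pass (adjusted p = 0.153), nor did that of Cnn1, calponin, named after its values were seen (1.71, adjusted p = 0.0975). Of the 20 genes, 10 were without overlap and higher at 8 weeks, against 4.58% of all genes. The list held 9 rises without 20-week mouse 3 and 1 without 8-week mouse 4 or 5 or 4-week mouse 2, 3 or 4. Its expressed members together lay at 8.05 to 8.25 per mouse at 8 weeks, and at 7.78, 7.36, 7.04, 6.56 and 7.68 in 4-week mice 1 to 5, in which mouse 4 was also the array with the lowest upper quartile.

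**Figure D4:**
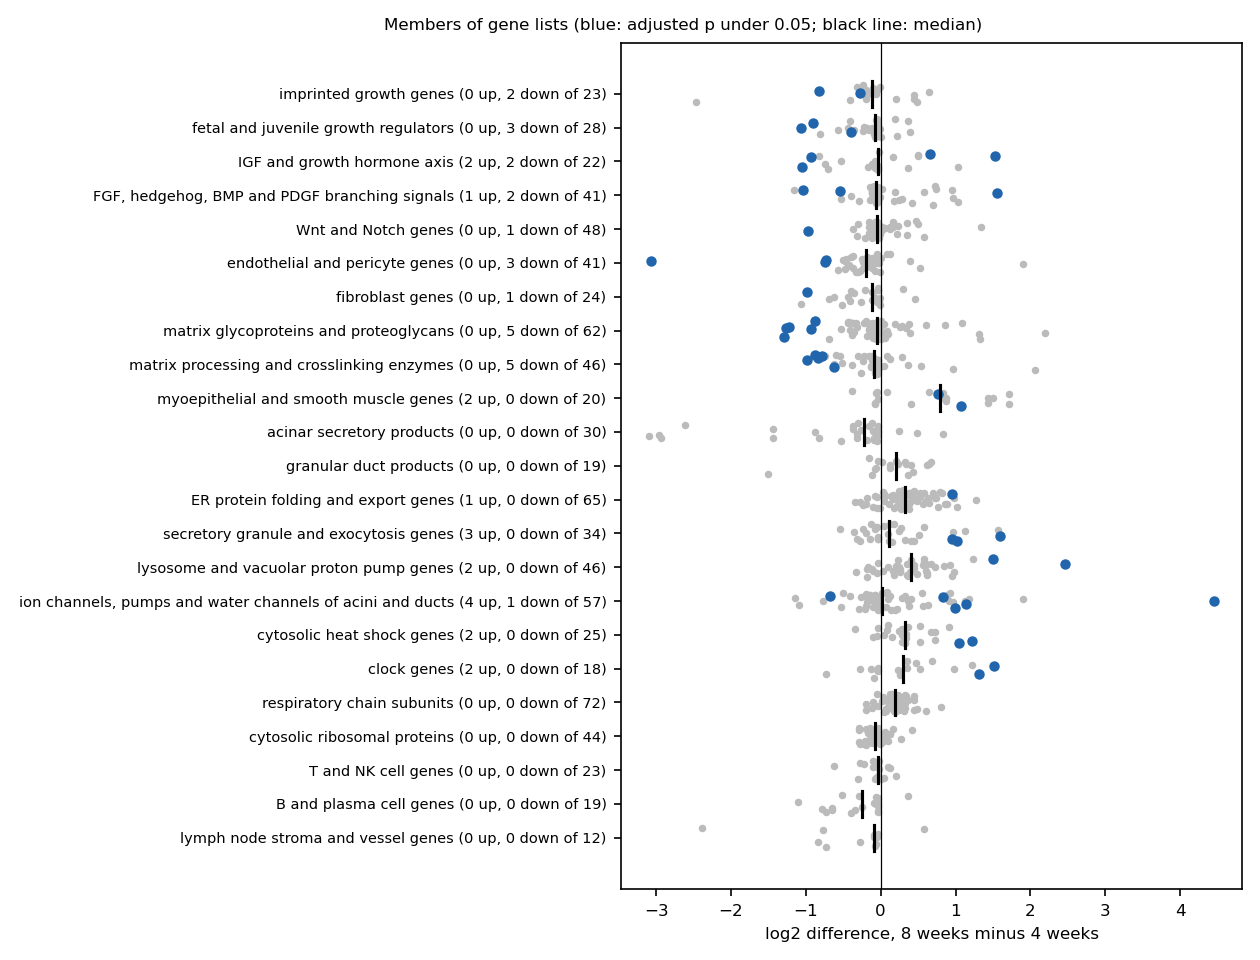
Log2 difference, 8 weeks minus 4 weeks, of each measured member of 23 gene lists; blue points passed the adjusted p threshold, grey points did not, and the black line is the median of the list. Blue points lie left of 0 in the vessel, imprinted and matrix lists, right of 0 in the granule, lysosome, heat shock and clock lists and on both sides in the IGF and ion channel lists, while most members of every list are grey.

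Secretory machinery gave few calls. Of 34 secretory granule and exocytosis genes 3 rose and none fell. Cpe, carboxypeptidase E, which trims peptide precursors in granules, had 12.42 ± 0.204 at 8 weeks and 10.81 ± 0.865 at 4 weeks (difference 1.60, adjusted p = 0.0186). Rph3al, a Rab effector of granule release, rose by 0.95 (adjusted p = 0.0266) and Stx4a, a syntaxin of the cell membrane, by 1.02 (adjusted p = 0.0266). In the ER list 1 of 65 rose, about the 1.48% of all genes, the stress sensor gene Atf6 (0.95, adjusted p = 0.0342), with a list median of 0.33 that was 0.08 after quantile normalization. In the lysosome list 2 of 46 rose, Galc and Man2b1, a lysosomal mannosidase (1.5, adjusted p = 0.0294), with a median of 0.40 and of 0.16 after quantile normalization. All of these calls were lost without 4-week mouse 3 or 4, with adjusted p values up to 0.0604 for Cpe, 0.0938 for Rph3al, 0.0954 for Stx4a, 0.12 for Atf6 and 0.101 for Man2b1. Without 20-week mouse 3 the granule list held 6 rises, the ER list 9 and the lysosome list 10. After quantile normalization the granule list held 5 rises and 1 fall, the ER list 5 and 1 and the lysosome list 6 rises.

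Of 57 ion channels, pumps and water channels 4 rose and 1 fell as deposited and 5 rose and 7 fell after quantile normalization, with a median of 0.02 as deposited. Beside Atp4a, the rises were Kcnq1, a potassium channel (0.83, adjusted p = 0.0318), Kcnj16, an inward rectifier (1.14, adjusted p = 0.0398), and Cftr, the chloride channel of duct cells, which had 7.07 ± 0.508 at 8 weeks and 6.08 ± 0.364 at 4 weeks (adjusted p = 0.0449). Trpv6, a calcium channel, fell by 0.68 (adjusted p = 0.0235). These calls were lost in 3 to 8 omissions, up to 0.106 for Kcnq1 without 4-week mouse 3, 0.137 for Kcnj16 and 0.147 for Cftr without 4-week mouse 4, and 0.0844 for Trpv6 without 8-week mouse 5. After quantile normalization Kcnq1 (adjusted p = 0.339) and Cftr (adjusted p = 0.164) did not pass. Kcnq1, Kcnj16 and Cftr overlapped between ages. The list held 10 rises without 20-week mouse 3, 8 without 4-week mouse 1 and none without 8-week mouse 5 or 4-week mouse 3 or 4.

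Epithelial enzymes, inhibitors and junctions added single rises. Gsto1, a glutathione transferase, had 12.59 ± 0.164 at 8 weeks and 11.07 ± 0.779 at 4 weeks (adjusted p = 0.0166), with 0.0563 without 4-week mouse 3, and with Sult1c1 and Aldh1a1 it made 3 rises in 53 conjugating and detoxifying enzymes. Aldh1a1, an enzyme of retinoic acid synthesis, rose by 1.31 (adjusted p = 0.0416). The protease inhibitor genes Spint1, with 11.04 ± 0.0803 at 8 weeks and 9.76 ± 0.645 at 4 weeks (adjusted p = 0.0245), and Serpinb6a, with 13.26 ± 0.225 at 8 weeks and 11.65 ± 0.893 at 4 weeks (adjusted p = 0.0306), rose with Cst6, giving 3 of 27 in that list. Dst, a linker of keratin filaments to hemidesmosomes, rose by 2.10 (adjusted p = 0.0342) with overlap between ages, and Ppargc1b, a coactivator of mitochondrial genes, by 1.66 (adjusted p = 0.0416). Each of the last 5 lost its call in 5 to 9 omissions, up to 0.145 for Aldh1a1, 0.0791 for Spint1, 0.108 for Serpinb6a and 0.132 for Ppargc1b without 4-week mouse 4 and 0.123 for Dst without 8-week mouse 5.

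The lists of salivary secretory products gave no call on the deposited values. Of 30 acinar products measured none passed (4 with an unadjusted p under 0.05), and of 19 granular duct products none passed (9 with an unadjusted p under 0.05). After quantile normalization 2 acinar products fell, and 2 granular duct products rose and 1 fell. The most abundant acinar products differed little. Mucl2, a mucin-like protein, had 16.73 ± 0.0221 at 8 weeks and 16.76 ± 0.0483 at 4 weeks, near the top of the scale of the arrays, where differences can be compressed. Prol1, a proline-rich mucin of the submandibular gland, had 15.34 ± 0.086 at 8 weeks and 15.44 ± 0.0399 at 4 weeks, and Car6, the secreted carbonic anhydrase, 14.86 ± 0.0912 at 8 weeks and 14.99 ± 0.0682 at 4 weeks. Egf, named outside the rule, had 14.55 ± 0.097 at 8 weeks and 14.32 ± 0.286 at 4 weeks (adjusted p = 0.445).

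The 4-week mice differed among themselves in the juvenile products, all named after their values were seen. Smgc, the juvenile secretory protein of submandibular and sublingual acini, which shares its gene with the mucin Muc19, had 7.69, 7.19, 8.56, 7.73 and 8.00 in 8-week mice, against 7.82, 12.66, 13.12, 12.33 and 8.69 in 4-week mice. Mice 2, 3 and 4 of 4 weeks were above all other mice, and mice 1 and 5 were at or just above the 8-week values, and the difference of -3.09 did not pass (adjusted p = 0.0942). Of its 2 probe sets tested alone, 1 passed (-3.78, adjusted p = 0.0442) and the other did not (-2.41, adjusted p = 0.624). Sval2, a seminal vesicle antigen-like secretory protein, had 6.13, 5.80, 5.39, 6.37 and 5.93 in 8-week mice, against 6.02, 8.54, 8.67, 7.63 and 5.95 in 4-week mice (adjusted p = 0.0876, or 0.0418 after quantile normalization). Vip, the nerve peptide that stimulates secretion, had 3.13, 3.16, 3.1, 3.49 and 2.74 in 8-week mice, against 3.15, 4.71, 5.09, 5.70 and 3.32 in 4-week mice (adjusted p = 0.154). The same 3 mice were high in each of these genes and in Cdkn1c and Ramp1.

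Some granular duct products, also named after their values were seen, had the reverse order in the same mice. Klk1b24, a kallikrein, had 14.96, 14.97, 14.95, 14.78 and 14.88 in 8-week mice, against 14.86, 14.49, 13.88, 13.36 and 14.73 in 4-week mice (difference 0.64, adjusted p = 0.122, or 0.0269 after quantile normalization). Klk1b1, another kallikrein, had 15.24 ± 0.0979 at 8 weeks, and 15.28, 14.66, 14.27, 13.72 and 15.17 in 4-week mice 1 to 5 (adjusted p = 0.178), and Nucb2, the precursor of nesfatin, had 13.07 ± 0.0833 at 8 weeks, and 13.00, 12.28, 12.32, 11.56 and 12.83 in 4-week mice (adjusted p = 0.0603). In each of these 3, 4-week mice 1 and 5 lay at or near the 8-week level and mice 2, 3 and 4 below it. The list as a whole did not share that order: its expressed members together lay at 12.6 to 12.7 per mouse at 8 weeks and at 12.65, 12.83, 12.36, 12.08 and 12.64 in 4-week mice 1 to 5, with mouse 2 the highest of all 10. Of the 19 measured members 13 were higher and 6 lower at 8 weeks, among the lower ones Klk1 (-0.16, adjusted p = 0.177), Scgb1b27 (-0.12, adjusted p = 0.698) and Scgb1b2 (-1.51, adjusted p = 0.393). The kallikrein genes are near copies of each other, so their probe sets may share signal. Without 4-week mouse 1, 7 granular duct products rose and 3 acinar products fell, and without 4-week mouse 5, 4 rose and 2 fell. Over the 269 genes that rose, 4-week mouse 1 was the highest 4-week mouse in 60.2% and mouse 4 the lowest in 68.4%, while over all 11696 expressed genes these shares were 28.9% and 62.3%. Over the 142 falls, mice 1 and 5 were the lowest 4-week mice in 33.8% and 31.7%, against 17.7% and 7.11% of expressed genes.

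**Figure D5:**
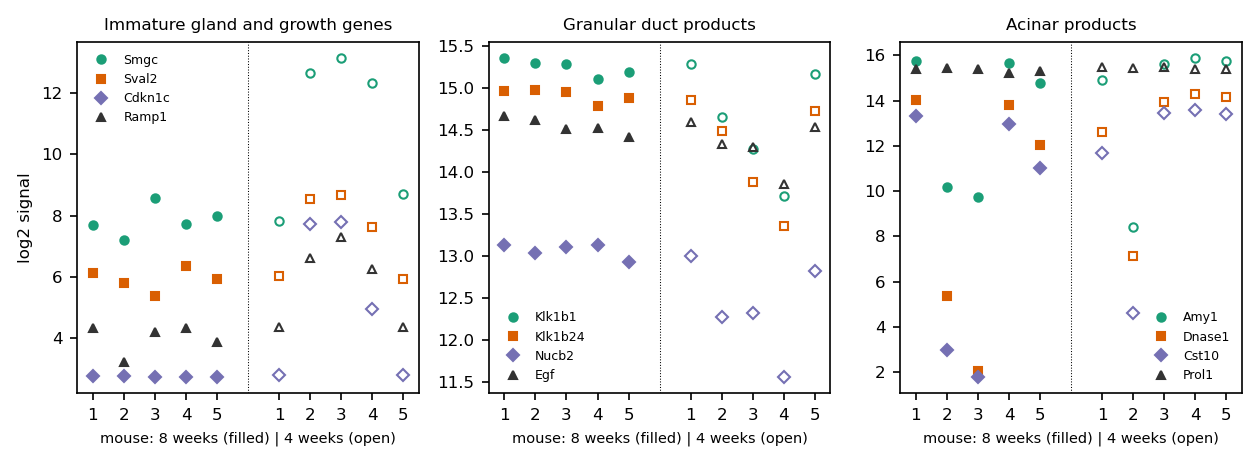
Log2 signal of 4 genes per panel in each mouse, with 8-week mice 1 to 5 at the left (filled) and 4-week mice 1 to 5 at the right (open). In 4-week mice 2, 3 and 4 Smgc, Sval2, Cdkn1c and Ramp1 are high and the plotted kallikreins and Nucb2 low, while Amy1, Dnase1 and Cst10 are low in 8-week mice 2 and 3 and in 4-week mouse 2.

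Products known from the parotid, named outside the rule, differed more between mice than between ages. Amy1, salivary amylase, had 15.75, 10.17, 9.76, 15.66 and 14.79 in 8-week mice, against 14.89, 8.42, 15.62, 15.86 and 15.75 in 4-week mice (difference -0.88 ± 1.78 SE, adjusted p = 0.772). Dnase1, a secreted nuclease, had 14.02, 5.39, 2.08, 13.80 and 12.02 in 8-week mice, against 12.63, 7.12, 13.93, 14.27 and 14.17 in 4-week mice (adjusted p = 0.703), and Cst10, a cystatin, had 2.98 and 1.78 in 8-week mice 2 and 3, against 4.62 in 4-week mouse 2 and at least 11.03 in all others. Mice 2 and 3 of 8 weeks and mouse 2 of 4 weeks held little of these products. All comparisons include these mice, and the part of parotid tissue in them was not tested. Calls numbered 205 rises and 111 falls without 8-week mouse 2, 148 and 94 without 8-week mouse 3, and 139 and 106 without 4-week mouse 2.

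Genes that respond to stress and time of day gave single calls. In the heat shock list 2 of 25 rose, or 3 with 1 fall after quantile normalization, with a median of 0.32 that was 0.09 after quantile normalization. Hsph1, a large chaperone of the HSP110 family, had 6.44, 6.60, 6.37, 5.73 and 6.43 in 8-week mice, against 5.70, 5.10, 5.11, 4.37 and 5.21 in 4-week mice (difference 1.22, adjusted p = 0.0138). The lowest 8-week mouse lay just above the highest 4-week mouse, and the call held without any single array. Dnaja1, a cochaperone of HSP70, rose by 1.05 (adjusted p = 0.0437) but lost its call in 8 omissions, up to 0.143 without 4-week mouse 4. In the clock list 2 of 18 rose. Per2, a repressor in the clock, had 4.98, 4.46, 6.43, 5.64 and 6.73 in 8-week mice, against 3.88, 4.49, 4.54, 4.03 and 3.76 in 4-week mice (difference 1.51, adjusted p = 0.0342), and Tef, a clock output transcription factor, had 9.57 ± 0.785 at 8 weeks and 8.26 ± 0.3 at 4 weeks (adjusted p = 0.0372). Both overlapped between ages, with 8-week mice 3, 4 and 5 above the other 8-week mice, and both lost their calls in 7 omissions, up to 0.126 for Per2 and 0.13 for Tef without 8-week mouse 5. The Tef call was also lost after quantile normalization (adjusted p = 0.0666). The time of day at which each mouse was killed is not given in the sources used here. Sgk1, a kinase induced by corticoids, had 12.96 ± 0.338 at 8 weeks and 11.54 ± 0.897 at 4 weeks (adjusted p = 0.0245). Its call was lost in 4 omissions, up to 0.0822 without 8-week mouse 5. In the amino acid stress list 2 of 34 fell, against 6 after quantile normalization. They were Chac1, which degrades glutathione (-2.29, adjusted p = 0.022), and Eif4ebp1, a brake on translation (-0.63, adjusted p = 0.043), both with overlap. Chac1 lost its call in 5 omissions, up to 0.0768 without 4-week mouse 3, and Eif4ebp1 in 9, up to 0.129 without 8-week mouse 3.

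The windows of Hsph1 and Tef are shown because heat shock and clock factors are known to bind the motifs TTCNNGAA and CACGTG. They are again the 250 bases before the RefSeq start on build GRCm38.p6 on the strand of the gene, with Hsph1 at chr5:149636337-149636586 on the minus strand and Tef at chr15:81802423-81802672 on the plus strand, and the capitals again mark matches to any of the 4 motifs on either strand, TTCNNGAA and CCAAT in Hsph1 and CACGTG and CCAAT in Tef.
Hsph1: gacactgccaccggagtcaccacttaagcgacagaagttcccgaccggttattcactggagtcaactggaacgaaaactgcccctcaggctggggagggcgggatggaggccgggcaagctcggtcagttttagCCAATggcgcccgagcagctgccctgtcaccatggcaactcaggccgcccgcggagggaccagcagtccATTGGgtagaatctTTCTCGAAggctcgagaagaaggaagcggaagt
Tef: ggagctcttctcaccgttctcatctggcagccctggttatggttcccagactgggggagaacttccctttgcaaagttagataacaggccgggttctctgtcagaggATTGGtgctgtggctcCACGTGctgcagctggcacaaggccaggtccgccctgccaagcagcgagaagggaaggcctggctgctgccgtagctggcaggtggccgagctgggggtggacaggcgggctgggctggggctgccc
The first base of TTCNNGAA lay 33 bases before the Hsph1 start and that of CACGTG 127 bases before the Tef start, which also had CCAAT on the opposite strand 143 bases before it, and both genes have a further start that is not shown. TTCNNGAA was in 9.09% of the genes that rose and in 7.49% of all genes tested with an entry, and CACGTG in 12.6% and 8.73%. Over all windows the shares were 7.17% and 6.02%.

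No gene in the lists of immune and lymphoid cells was called on the deposited values. None passed of 23 T and NK cell genes, of 19 B and plasma cell genes, of 33 macrophage and dendritic cell genes, of 11 mast cell genes or of 12 genes of lymph node stroma and vessels, where the unadjusted p was under 0.05 in 2 macrophage genes, 1 lymph node gene and no other. Glycam1, the ligand on lymph node venules, had 4.15, 4.2, 4.06, 6.84 and 4.01 in 8-week mice, against 4.14, 4.27, 9.11, 9.62 and 8.07 in 4-week mice (adjusted p = 0.294). The expressed B and plasma cell genes together were high in the same mice, at 3.47, 3.52, 3.42, 5.05 and 3.40 in 8-week mice and 3.51, 3.48, 4.13, 5.19 and 4.65 in 4-week mice. Lymph node genes were high in 1 mouse of 8 weeks and 3 mice of 4 weeks although the nodes had been removed, and their part in the other results was not tested. Interferon response genes (0 of 31), class II genes (0 of 10), chemokines (0 of 30) and complement genes (0 of 22) had no call, with 1, 2, 5 and 2 unadjusted p values under 0.05. After quantile normalization 1 macrophage gene and 1 chemokine rose and 1 chemokine fell.

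Respiratory chain and cytosolic ribosomal protein genes gave no call. In a list of reference genes 1 of 11 rose, with a median of 0.32 that was 0.08 after quantile normalization. Of 37 ribosome biogenesis and translation factors 1 rose and 1 fell. None of 72 respiratory chain subunits passed (4 with an unadjusted p under 0.05), with a median of 0.19 that was -0.02 after quantile normalization, and none of 44 cytosolic ribosomal protein genes passed (2 with an unadjusted p under 0.05), with a median of -0.08 and of -0.18 after quantile normalization. Skeletal muscle and adipocyte genes, markers of tissue around the gland, had no call in 20 and 16 genes, and their expressed members together lay at 3.86 to 4.05 and 5.35 to 6.68 per mouse at 8 weeks and 3.91 to 4.42 and 5.62 to 6.54 at 4 weeks. Of 4 sex-linked genes Eif2s3y, a translation factor gene of the Y chromosome, rose by 1.49 (adjusted p = 0.0399), with 4-week mouse 2 at 5.12 and mouse 3 at 5.97. Its call was lost in 6 omissions, up to 0.124 without 8-week mouse 5, and after quantile normalization (0.0682). Eif2s3y overlapped between ages.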

How the data were processed

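Salivary gland RNA of 25 mice was hybridised to Affymetrix whole-genome mouse arrays, 1 per mouse. The authors deposited log2 values for 45101 probe sets; their methods name GCRMA and the processing notes name RMA, with no version in the sources used here. Both methods put the arrays on a common scale, so a shift shared by most genes would be hidden. Probe sets with 1 gene symbol (34958) were used, and a gene had the mean of its expressed probe sets (mean over arrays above 3.27, the median) or, failing these, of all, giving 18194 genes. All 25 arrays were fitted in limma 3.58.1 (R 4.3.3) with a mean per age, and 8 weeks was compared with 4 weeks in two-sided tests adjusted by Benjamini-Hochberg across the 18194 genes; all ages share 1 estimate of spread. Rose, fell and passed mean an adjusted p under 0.05. The exact permutation test of the upper quartile used all 252 divisions of 10 arrays. Replicates are single mice, p-values measure the spread between them, and precision rests on 5 mice per age and on signal over background. The members and gene lists were chosen with earlier results of these data known, so a list's count and median are descriptions beside those over all genes. Named genes are the 15 largest rises and 15 largest falls without overlap and outside the cell division and collagen lists, and per list up to 6 called members, or up to 3 uncalled ones by level where fewer than 3 were called, without genes that lack a common symbol. Genes named outside the rule are marked, apart from list members given only for comparison, such as Apln, Kdr and Tie1. Alternatives covered the probe set summary, filter, normalization, prior, weights, replicate block and omission of single arrays. On simulated data for 8 weeks against 4 weeks with 18194 genes, 83 of 100 changes of 1 and 97 of 100 of 2 log2 units were recovered, with 16 false among 196 calls. The simulated noise was independent between genes and arrays, with 1 spread per gene at all ages and no outlying array. These rates therefore need not hold for the real arrays. Promoter sequences are from RefSeq (GRCm38.p6). Figures were drawn with matplotlib 3.10.9 in Python 3.11.15.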

Additional observations from a re-analysis of the deposited data

Results flagged for a closer look

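Over 106 genes and 2 ages, 15 of 212 groups of 5 mice had 1 mouse far from the other 4, by a gap of more than 0.71 of the range, where chance alone flags about 1 in 20. Among these are the parotid products in 4-week mouse 2, with 8.42 for Amy1 (others 14.89 to 15.86), 7.12 for Dnase1 (12.63 to 14.27) and 4.62 for Cst10 (11.69 to 13.59). Glycam1 stood at 6.84 in 8-week mouse 4 (others 4.01 to 4.2).

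At 8 weeks, mouse 4 was low in Galc at 8.01 (others 9.05 to 9.33) and in Hsph1 at 5.73 (6.37 to 6.60). Mouse 2 of that age was low in Slc37a2 at 5.53 (6.25 to 6.41) and in Stx4a at 7.12 (7.48 to 7.61), and high in Sox18 at 4.19 (3.76 to 3.82). Mouse 3 was low in Lama2 at 4.94 (5.33 to 5.42), and mouse 5 was high in Ctsk at 4.88 (4.37 to 4.38).

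At 4 weeks, mouse 1 was high in Paxbp1 at 6.36 (others 4.81 to 5.13), and mouse 4 was low in Aldh1a1 at 7.74 (8.67 to 8.97) and in Eif4ebp1 at 10.56 (11.10 to 11.31). Mouse 3 stood at 16.84 in Mucl2 (16.72 to 16.75), a gap at the top of the scale. What sets these mice apart was not tested.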

How the results depend on the processing

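The fit as described gave 269 rises and 142 falls. Leaving out single arrays gave 79 to 936 rises and 85 to 305 falls, with the low ends without 8-week mouse 5 and the high ends without 20-week mouse 3. The 10 arrays alone gave 108 and 72, and with quantile normalization, an alternative chosen after seeing the data, 161 and 239. Array weights gave 1245 and 1109. Quantile normalization of all 25 arrays gave 293 and 310, which lowers the share of rises among calls to 48.6%, against 65.5% as deposited, and the upper quartile as a covariate gave 138 and 235 (37.0% rises). Of the calls as deposited, 175 rises and 130 falls were shared with the quantile fit. Other summaries of probe sets, the filter, the trend prior and single probe sets gave 234 to 387 rises and 127 to 170 falls, each within 1.5 times. No named gene changed direction with a call under any alternative, and of the 88 called ones 80 were kept after quantile normalization, 67 with the covariate, 73 with the brightest probe set, 34 in the 10 arrays alone and 75 with the replicate block. The cause of these losses was not tested. Samples of the 2 ages shared replicate numbers only: the correlation of same-numbered deviations was -0.225, 0.377, -0.119, 0.146 and 0.03, and 1 of 5 mice of 8 weeks correlated best with its own number. With the replicate block the counts were 238 and 123. Genes near 3.27 have little room to fall, which limits the size of falls.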
